A study of Mus musculus with 14 samples.

Results

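The genes described here are 4 DGKs (Dgka, Dgkd, Dgkh and Dgkz) and 2 RasGRPs (Rasgrp1 and Rasgrp2). They were chosen by name, with earlier results of these data known, from the series table. That table holds 10 DGK and 4 RasGRP genes among 48363 genes with values. All 6 chosen genes were tested among 16241 genes that passed the filter on low values (at least 10 normalized counts in 2 libraries).

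Diacylglycerol kinases and several RasGRPs stand on opposite sides of the same lipid. When the T cell receptor is engaged, phospholipase C gamma cleaves a membrane phosphoinositide and releases diacylglycerol (DAG), which draws proteins with a C1 domain to the membrane. RasGRPs have a C1 domain and are exchange factors that load RAS or RAP GTPases with GTP. They so start the RAF, MEK and ERK cascade or integrin activation, and the product of Rasgrp2 is regulated by calcium. Diacylglycerol kinases (DGKs) phosphorylate DAG to phosphatidic acid and thereby end the DAG signal, and in T cells the alpha and zeta isoforms are known as brakes on RAS and ERK signaling.

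RNA-seq was done on 14 libraries of regulatory T cells (Tregs), sorted as live FOXP3-YFP+ CD4+ cells from spleen and lymph nodes of untreated mice. The tested genotype was miR-15/16 fl/fl Foxp3-Cre (cKO, 5 libraries), in which both miR-15/16 clusters are floxed and are deleted once a cell expresses the Cre, and it was set against its wt/wt counterpart, also Foxp3-Cre (WT, 4 libraries). WT Tregs were further sorted on CD25, the alpha chain of the IL-2 receptor, into a low bin (CD25lo, 2 libraries) and a high bin (CD25hi, 3 libraries). Mice of every group carry the Cre-YFP fusion under the Foxp3 locus, so no group lacks that allele. The deletion is restricted to Foxp3-expressing cells, which in cKO mice live in a host described as inflamed at older age. The paper also reports more effector T cells in its younger mice. It names a younger and an older age for its experiments, and which of them applies to these libraries is not given in the sources used here. Libraries are described as biological replicates, and p-values measure the spread between them.

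All values are normalized counts, that is, reads per gene divided by a size factor of the library. The libraries held 30055573 to 35226685 reads in genes, with 30762420 to 33988565 in cKO, 30055573 to 31964703 in WT, 31151860 and 35226685 in CD25lo, and 31295758 to 33516978 in CD25hi. Foxp3 lay between 17804 and 19652 in cKO, 18053 and 21324 in WT, 14546 and 16298 in CD25lo, and 21788 and 24370 in CD25hi, and Il2ra, which encodes CD25, between 13359 and 17141 in cKO, 24206 and 29151 in WT, 14682 and 15027 in CD25lo, and 39583 and 41188 in CD25hi. By Xist and Ddx3y all 5 cKO libraries and WT replicate 3 came from females and the other 8 from males, so genotype and sex can be told apart only through that 1 WT library. The paper describes its mice as matched for sex, which these libraries were not. The summed level of 12 myeloid markers was 1260 to 4995 in cKO, 1692 to 7602 in WT, 1815 to 2023 in CD25lo and 1267 to 1920 in CD25hi. None of the 10 that were tested passed the adjusted threshold in either comparison (limma). Their median log2 fold change was -1.48 in cKO against WT, against 0.05 over all tested genes. In CD25lo against CD25hi it was 0.73, against 0 over all tested genes. The part of these myeloid transcripts in the results below was not tested. The sum over 10 B cell markers was 19245 to 25570 in cKO, 14820 to 20292 in WT, 13158 to 13626 in CD25lo and 13500 to 14640 in CD25hi, with Ighm called higher in cKO. Among 6 platelet markers, read because Rasgrp2 is the RAP exchange factor of platelets, Pf4 and Gp1bb were at 0 in all 14 libraries and Ppbp, Gp9 and Gp6 at most at 7.4. Itga2b, the one that was tested, lay between 46.0 and 119 in cKO, 93.7 and 193 in WT, 101 and 109 in CD25lo, and 60.9 and 115 in CD25hi, and did not pass in either comparison. In bulk libraries, fewer cells of a type and less RNA per cell cannot be told apart.

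Because the cKO lacks miR-15/16, the sequences that bear on the comparison are the miRNAs and the stretches of these genes that could pair with their seed. The mature miRNAs below are from RefSeq (GRCm38.p6), with the seed (bases 2 to 8) in capitals. All 3 share the same seed.
miR-15a-5p: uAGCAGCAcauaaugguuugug
miR-15b-5p: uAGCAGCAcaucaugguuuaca
miR-16-5p: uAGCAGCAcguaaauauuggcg

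The longest annotated 3′ UTR of each gene (GENCODE M21, GRCm38, sense strand) was searched for TGCTGCT, which pairs with the whole seed, for the stretch GCTGCTA, which pairs with all of it but its last base and ends in an A, and for TGCTGCTA, which holds both and was counted as 1 match. Of the 5 genes reported here, Dgkd had a match, against 27.8% of the 12731 tested genes with an annotated 3′ UTR. The match is in capitals, inside a stretch of 28 bases written 5′ to 3′ on the strand of the gene, from chr1:87945037-87945064 (plus strand).
Dgkd: aagaaagttgTGCTGCTtgaagaaaaag

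Dgkd held 1 match in a UTR of 2664 bases, in 1 of the 3 transcripts with an annotated UTR. Dgka, Dgkz, Rasgrp1 and Rasgrp2 held no match in UTRs of 289, 585, 2549 and 227 bases. A match is a description of the sequence and not a shown site.

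Per kb of the longest coding transcript, Dgka was the most abundant of the 6 at 18170 normalized counts per kb over the 14 libraries, followed by Dgkz (6216), Rasgrp2 (4201), Rasgrp1 (3245), Dgkd (1773) and Dgkh (290). The DGK pool of these Tregs was therefore mostly Dgka and Dgkz, and Dgkh supplied between 0.678% and 1.87% of the summed DGK level per kb in any library. Rasgrp2 has transcripts with retained introns, and per kb of all its exons it averaged 779 and stood below Rasgrp1 (3030) and Dgkd (1474), so its place in the order depends on the length used. By the count itself Dgka ranked as number 33 among all tested genes and Dgkz as number 114, while Dgkh ranked as number 5400. Across the 14 libraries the highest value was 1.28 times the lowest for Dgkz, 1.41 for Rasgrp1, 1.43 for Dgka, 2.00 for Rasgrp2 and 2.67 for Dgkh, with Dgkd between Dgka and Rasgrp2.

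**Figure D1:**
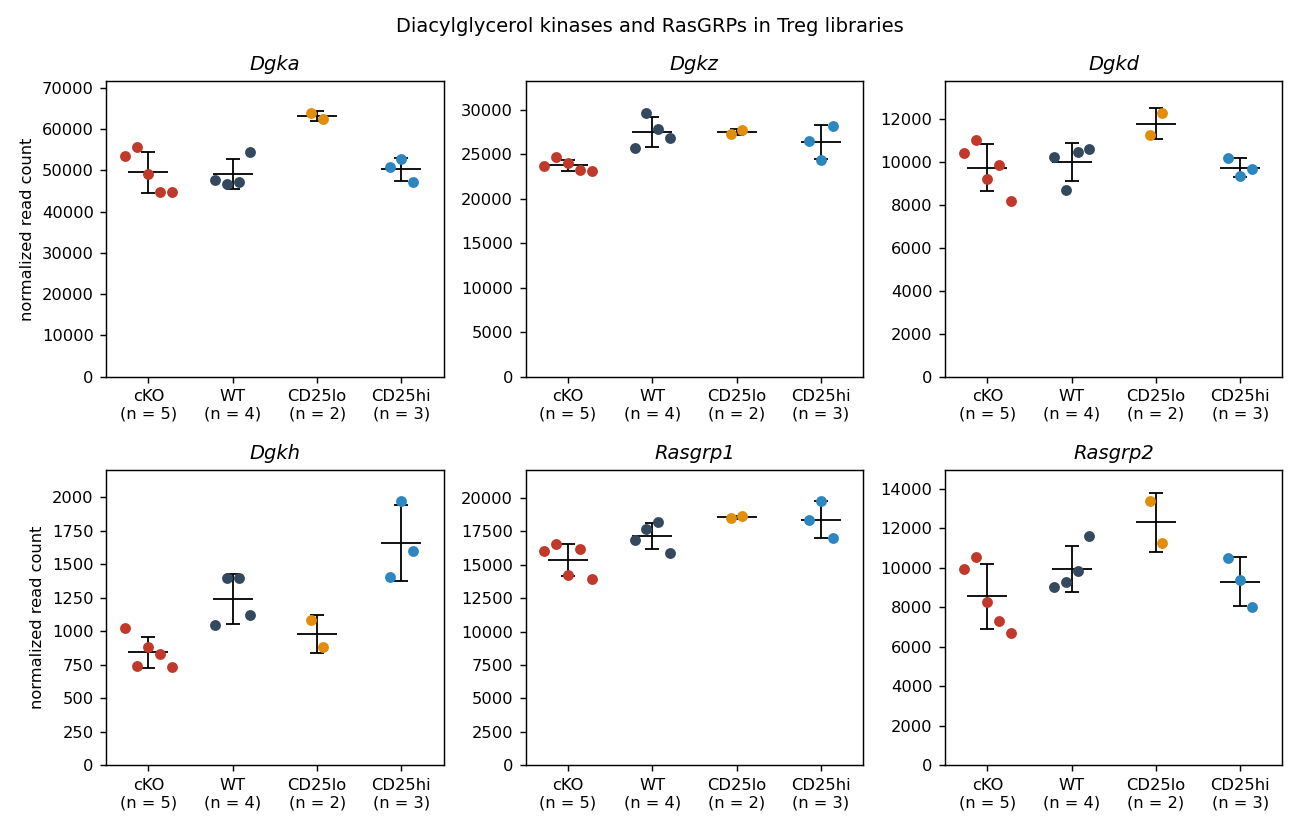
Normalized read count (vertical axes, from 0) of each gene in every library, by group (cKO, WT, CD25lo, CD25hi). Points are libraries, and the bars give the mean and SD. Dgkh and Dgkz are lower in all 5 cKO libraries than in any WT library, and both CD25lo libraries lie above all others for Dgka.

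In the comparison of cKO with WT, which asks what the loss of miR-15/16 does in Tregs, 2 of the 6 genes passed the test (limma, adjusted p under 0.05), both DGKs and both lower in cKO, while 3.52% of all tested genes passed and 1.48% passed as lower. Dgkh fell by 32.0% and Dgkz by 13.6%. Rasgrp1, Rasgrp2, Dgkd and Dgka did not pass. The median log2 fold change of the 6 genes was -0.19, against 0.05 over all tested genes.

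Dgkh encodes DGK eta, a type II DGK that in other cell types has been tied to RAF and ERK signaling. It had 1022.6, 744.9, 881.8, 831.2 and 736.5 normalized counts in the cKO libraries, against 1044.4, 1400.0, 1397.8 and 1125.3 in the WT libraries. The highest cKO library, replicate 1, lay just under the lowest WT library, also replicate 1, and the groups did not overlap, as held for 8.54% of all tested genes. The means were 843.4 ± 117 in cKO and 1242 ± 184 in WT (SD, n = 5 and 4), with a log2 fold change of -0.56 (SE 0.14, 95% interval -0.84 to -0.27, limma adjusted p = 0.0281). WT replicate 3, the female WT library, was among the high ones, at 1397.8 against 736.5 to 1022.6 in the female cKO libraries. The call was lost without cKO replicate 2, 3, 4 or 5 (limma adjusted p = 0.0699, 0.0549, 0.0552 and 0.0738) and without WT replicate 2 or 3 (0.0843 and 0.0919), and with sex as a term (log2 fold change -0.74, adjusted p = 0.352).

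Dgkz encodes DGK zeta, which limits DAG and RAS signaling downstream of the T cell receptor. It had 23652.3, 24642.7, 24035.2, 23260.6 and 23157.5 normalized counts in the cKO libraries, against 25700.4, 29668.2, 27828.4 and 26836.8 in the WT libraries. The cKO libraries lay close together, all below the lowest WT library, while the WT libraries were spread more widely with replicate 2 at the top. The means were 23750 ± 608 in cKO and 27509 ± 1682 in WT (SD, n = 5 and 4), with a log2 fold change of -0.21 (SE 0.06, 95% interval -0.33 to -0.09, limma adjusted p = 0.0494), just inside the threshold.

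This call held without WT replicate 1 and without CD25hi replicate 2 or 3 and was lost in the other 11 fits that left out 1 library, with adjusted p for Dgkz of 0.0572 to 0.106 without each cKO library, of 0.145, 0.107 and 0.0527 without WT replicates 2, 3 and 4, of 0.0641 without CD25hi replicate 1, and of 0.0607 and 0.0618 without CD25lo replicates 1 and 2. The log2 fold change stayed between -0.24 and -0.17 in all 14, and with sex as a term it was -0.23 (limma adjusted p = 0.698).

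**Figure D2:**
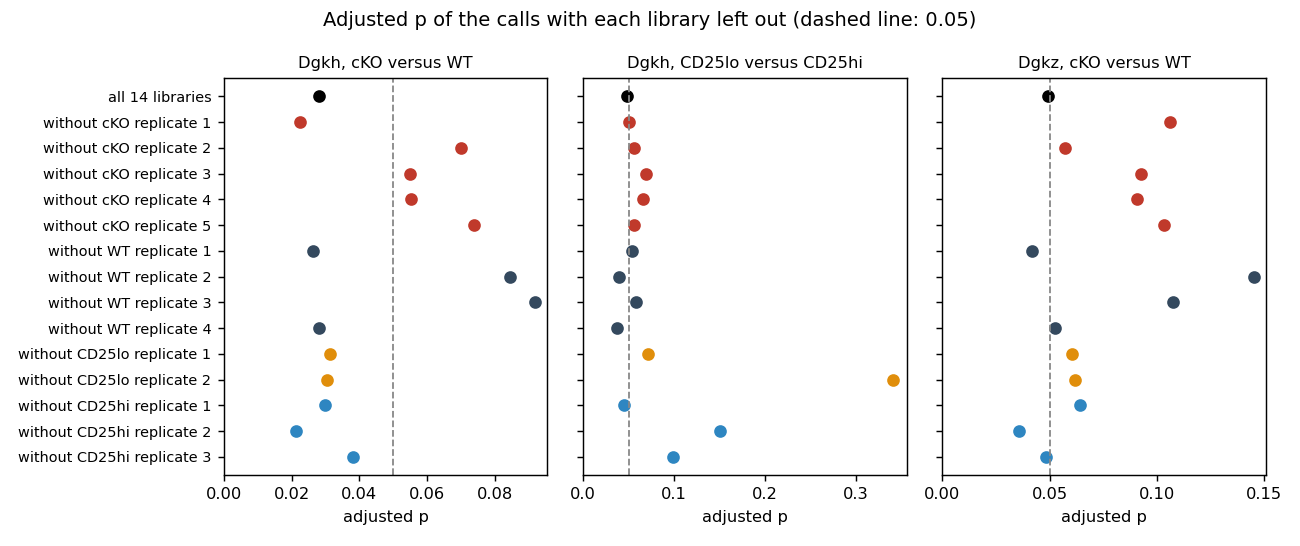
Adjusted p (horizontal axes, linear) of the 3 calls among these genes when each library in turn was left out (rows, colored by the group of the left-out library; black is the fit on all 14 libraries), with the threshold of 0.05 as a dashed line. Dgkh in cKO against WT stays left of the line in 8 of 14 fits, Dgkh in CD25lo against CD25hi in 3 of 14, and Dgkz in cKO against WT in 3 of 14.

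Rasgrp1, the RAS exchange factor that carries much of the DAG signal in T cells, had 15992.4, 16506.9, 14198.8, 16136.2 and 13961.3 normalized counts in the cKO libraries, against 16824.7, 17659.2, 18187.3 and 15891.6 in the WT libraries. WT replicate 4 lay below the 3 higher cKO libraries and above the other 2, and the groups overlapped. The means were 15359 ± 1186 in cKO and 17141 ± 1004 in WT (SD, n = 5 and 4), and the log2 fold change of -0.16 (95% interval -0.30 to -0.02) did not pass the test (limma adjusted p = 0.229).

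Rasgrp2 encodes CalDAG-GEFI, a calcium-regulated exchange factor for RAP1 that activates integrins in platelets and in leukocytes. It had 9944.5, 10562.2, 8266.4, 7311.4 and 6679.3 normalized counts in the cKO libraries, against 9010.0, 9269.1, 9847.5 and 11636.8 in the WT libraries. The cKO libraries were spread widely, with replicates 1 and 2 inside the WT range and replicates 3, 4 and 5 below it. The log2 fold change was -0.23 (SE 0.12, 95% interval -0.49 to 0.02, limma adjusted p = 0.364).

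Dgka, which encodes DGK alpha, a calcium-responsive kinase that is high in resting T cells, had 53443.4, 55660.8, 49108.9, 44672.8 and 44813.9 normalized counts in the cKO libraries, against 47766.9, 46739.9, 47110.6 and 54487.5 in the WT libraries. The WT range lay wholly inside the cKO range, and 3 WT libraries sat together with replicate 4 above them. The log2 fold change was 0.01 (95% interval -0.14 to 0.17, limma adjusted p = 0.964), and it turned to between -0.03 and -0.01 without cKO replicate 1 or 2 or WT replicate 2 or 3.

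Dgkd encodes DGK delta, a type II DGK like DGK eta. It had 10417.5, 11026.3, 9195.9, 9853.9 and 8168.0 normalized counts in the cKO libraries, against 10206.5, 8688.2, 10464.5 and 10581.4 in the WT libraries. The groups overlapped over most of their range, and the log2 fold change was -0.04 (95% interval -0.21 to 0.13, limma adjusted p = 0.872), with 0.02 without cKO replicate 5.

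Comparing the CD25lo with the CD25hi bin of WT Tregs, the series asks how Tregs that carry little CD25 differ from those that carry much. Of the 6 genes 1 passed the test, Dgkh, which was lower in CD25lo, while 1.62% of all tested genes passed and 1.01% passed as lower. In 4 of the 6 genes (Dgkh, Dgka, Dgkd and Rasgrp2) the bins did not overlap, and with 2 against 3 libraries this held for 24.5% of all tested genes. Dgka, Dgkd and Rasgrp2 had higher values in both CD25lo libraries than in any CD25hi library, without passing the test. The median log2 fold change was 0.17 over the 6 genes and 0 over all tested genes.

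Dgkh had 1082.0 and 883.1 normalized counts in the CD25lo libraries, against 1409.1, 1969.9 and 1599.5 in the CD25hi libraries. The CD25hi values were the highest of the series, and CD25hi replicate 2 stood at the top. The means were 982.6 ± 141 in CD25lo and 1660 ± 285 in CD25hi (SD, n = 2 and 3), a log2 fold change of -0.75 (SE 0.19, 95% interval -1.14 to -0.36, limma adjusted p = 0.0489).

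The Dgkh call between the bins was kept without CD25hi replicate 1 (limma adjusted p = 0.0453) and without WT replicate 2 or 4 (0.0390 and 0.0372), and it was lost in the other 11 fits that left out 1 library. The adjusted p was 0.341 and 0.0715 without CD25lo replicates 2 and 1, 0.151 and 0.0993 without CD25hi replicates 2 and 3, 0.0509, 0.0560, 0.0696, 0.0656 and 0.0559 without cKO replicates 1 to 5, and 0.0535 and 0.0588 without WT replicates 1 and 3, and the log2 fold change lay between -0.90 and -0.60.

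Dgka had 63956.5 and 62326.9 normalized counts in the CD25lo libraries, against 50800.7, 52788.8 and 47245.9 in the CD25hi libraries. Both CD25lo values lay above all 12 other libraries, cKO and WT included, and the share of all tested genes with this pattern was not computed. The means were 63142 ± 1152 in CD25lo and 50279 ± 2808 in CD25hi (SD, n = 2 and 3), and the log2 fold change of 0.33 (SE 0.10, 95% interval 0.12 to 0.54) had a limma adjusted p of 0.107. It passed with DESeq2 (0.33, adjusted p = 0.0155), with limma-voom (0.32, adjusted p = 0.0484), when only the libraries of the 2 bins were fitted (0.33, limma adjusted p = 0.0237) and with the early gene level described below as a term (0.34, limma adjusted p = 0.0155).

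Rasgrp2 had 13364.3 and 11237.1 normalized counts in the CD25lo libraries, against 10506.7, 9398.4 and 8002.4 in the CD25hi libraries. The lower CD25lo library was near the highest CD25hi library, and the log2 fold change of 0.41 (SE 0.17, 95% interval 0.06 to 0.75) did not pass (limma adjusted p = 0.272). Dgkd had 11269.4 and 12283.7 in the CD25lo libraries, against 10183.0, 9332.2 and 9664.7 in the CD25hi libraries, a log2 fold change of 0.28 (SE 0.11, 95% interval 0.04 to 0.51, limma adjusted p = 0.267). For both genes the 2 bins were separate but close.

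Dgkz and Rasgrp1 overlapped between the 2 bins. Dgkz had 27238.7 and 27715.3 normalized counts in the CD25lo libraries, against 26491.4, 24359.3 and 28207.4 in the CD25hi libraries, with a log2 fold change of 0.06 (95% interval -0.10 to 0.23, limma adjusted p = 0.779). Rasgrp1 had 18449.8 and 18625.9 in the CD25lo libraries, against 18361.2, 19721.7 and 17001.2 in the CD25hi libraries, with a log2 fold change of 0.02 (95% interval -0.17 to 0.21, limma adjusted p = 0.977), and of -0.04 without CD25hi replicate 3. The CD25hi ranges enclosed both CD25lo values for each gene.

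**Figure D3:**
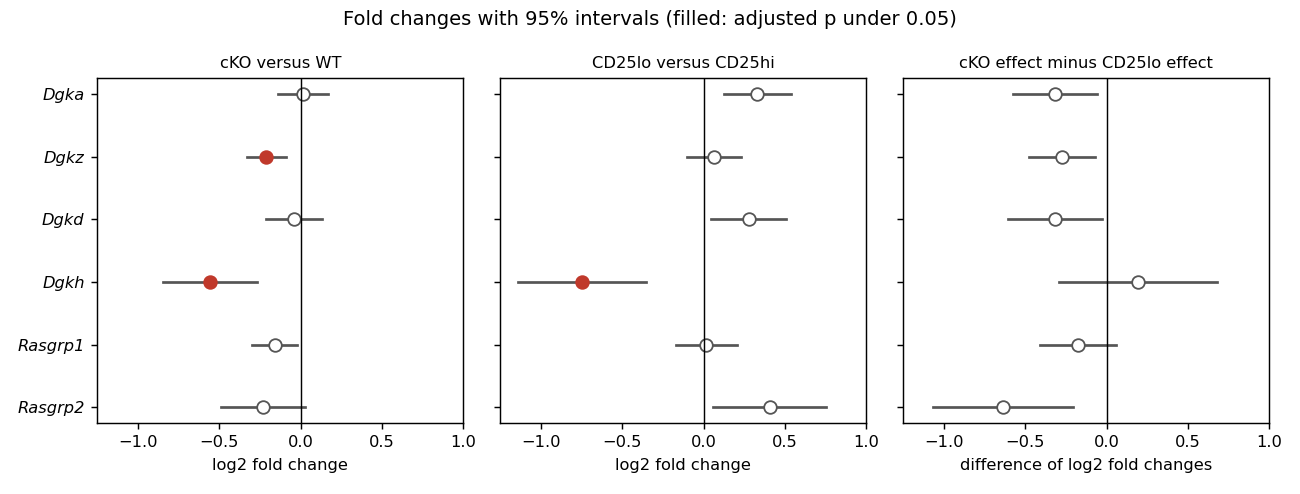
Log2 fold change (horizontal axes) of the 6 genes in cKO against WT, in CD25lo against CD25hi, and the difference of these 2 fold changes, with 95% intervals as lines. Filled red points passed the adjusted p threshold of 0.05: Dgkh and Dgkz in the first comparison, Dgkh in the second, and none for the difference.

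The 2 comparisons share no library, and their difference was tested directly. Whether bulk WT, CD25lo and CD25hi libraries came from the same mice is not given in the sources used here. The fit treated all 14 libraries as independent. None of the 6 genes passed (limma, against 1.03% of all tested genes; by unadjusted p under 0.05, Dgka, Dgkd, Dgkz and Rasgrp2 did, against 13.8% of all tested genes), nor with edgeR or DESeq2. For Dgkh, lower in both comparisons, the cKO fold change minus the CD25lo fold change was 0.19 on the log2 scale (95% interval -0.29 to 0.68, limma adjusted p = 0.773). Dgkz, called in cKO against WT and not in the bins, had a difference of -0.27 (95% interval -0.48 to -0.07, limma adjusted p = 0.201), so a difference between the 2 comparisons was not shown for it. Rasgrp2 had the largest difference of the 6, -0.64 (95% interval -1.07 to -0.21, limma adjusted p = 0.149), and it passed only with the early gene level as a term (-0.67, limma adjusted p = 0.0345). For Dgka and Dgkd the difference was -0.32 each (limma adjusted p = 0.247 and 0.316) and for Rasgrp1 -0.18 (limma adjusted p = 0.517).

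Set in order by group mean, Dgkh ran from CD25hi (1660) through WT (1242) and CD25lo (982.6) to cKO (843.4). The ranges of CD25hi and WT did not overlap, those of WT and CD25lo did, and so did those of CD25lo and cKO. For Il2ra the order was CD25hi, WT, cKO and CD25lo, with overlap only between cKO and CD25lo. For both genes the means were highest in CD25hi and next in WT. For Dgka and Dgkd CD25lo stood above the rest without overlap, and the other 3 groups overlapped with their neighbors in the order. For Dgkz, Rasgrp1 and Rasgrp2 every neighboring pair of groups overlapped, with cKO at the bottom each time. The bins alone did not overlap for 24.5% of all tested genes. How many of all tested genes have CD25lo above every other group, or CD25hi apart from WT, was not computed. The bulk WT mean lay between the means of the 2 bins for Dgkh, Dgkd and Rasgrp2. It lay below both for Dgka (49026 against 50279 and 63142) and Rasgrp1 (17141 against 18361 and 18538), and just above both for Dgkz. Bulk and sorted libraries also differed in the early gene level described below, and its part in this order was not tested.

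The summed level per kb of the 4 DGKs divided by that of the 2 RasGRPs was 3.57 to 4.12 in cKO (median 3.71) and 3.28 to 3.51 in WT (median 3.43). These 2 groups did not overlap on this length, but with the length of all exons, a setting added after the data were seen, the ratio was 4.23 to 4.88 in cKO and 3.98 to 4.62 in WT, and they overlapped. The summed RasGRP level per kb was 6662 ± 891 in cKO and 7608 ± 420 in WT (SD, n = 5 and 4), and the summed DGK level was 25099 ± 2045 in cKO and 25964 ± 1243 in WT. Between the bins the ratio was 3.35 and 3.67 in CD25lo and 3.27 to 3.79 in CD25hi, with the CD25lo values inside the CD25hi range (4.48 and 4.60 in CD25lo and 3.90 to 4.38 in CD25hi, without overlap, with the length of all exons), while both sums lay above the CD25hi range in CD25lo: 31186 ± 235 against 26189 ± 571 for the DGKs and 8903 ± 631 against 7563 ± 724 for the RasGRPs (SD, n = 2 and 3). These sums are dominated by Dgka and by the length given to Rasgrp2, and they were not tested.

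Among the bulk libraries, the high and low values of Dgka and Rasgrp2 fell in libraries that also differed in the early genes that T cell receptor signals induce (the mean log2 level of 18 genes such as Egr1, Nr4a1 and Fos). That level was 12.54, 12.57, 12.77, 13.24 and 13.40 in cKO replicates 1 to 5 and 13.36, 13.05, 13.35 and 12.00 in WT replicates 1 to 4, and it was 12.02 and 11.77 in CD25lo and 12.05, 11.74 and 11.72 in CD25hi. Dgka and Rasgrp2 were highest within cKO in replicates 1 and 2 and within WT in replicate 4, where early genes were lowest, and lowest within cKO in replicates 4 and 5, where early genes were highest. The other libraries did not all follow this: within WT Dgka was lowest in replicate 2, while early genes were highest in replicate 1. In CD25hi, where early genes were low, Dgka was 47246 to 52789 and Rasgrp2 8002 to 10507. Rasgrp2 was highest in replicate 1 of CD25hi, and both genes in replicate 1 of CD25lo, where early genes were the highest of their bin. With the early gene level as a term, the log2 fold change in cKO against WT was 0.0042 (SE 0.05, limma adjusted p = 0.980) for Dgka and -0.24 (SE 0.10, limma adjusted p = 0.174) for Rasgrp2.

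**Figure D4:**
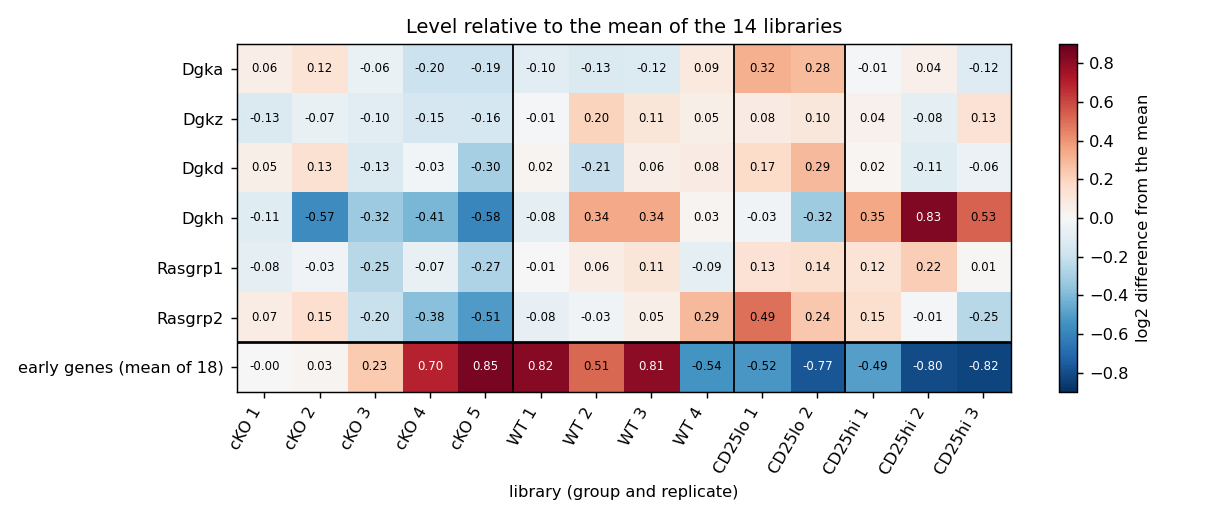
Level of each gene in each library as a log2 difference from its mean over the 14 libraries (color and printed value), with libraries in columns by group and replicate and, below the line, the mean of 18 early genes. Dgka and Rasgrp2 share their high and low cKO libraries, Dgkh is lowest in cKO and highest in CD25hi, and Dgkz is low in all 5 cKO libraries.

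As a description over the 14 libraries, which share their groups and their early gene level, the 6 genes fell into different profiles. Dgka and Rasgrp2 were most alike (Pearson r = 0.859), followed by Dgka and Dgkd (0.773) and Dgkd and Rasgrp2 (0.765), whereas Dgkh was most like Rasgrp1 (0.663) and had r = -0.07 with Dgka. Among genes with a mean of at least 1000 normalized counts, the 3 most like Dgkh were Aven (r = 0.898), Uck2 (0.894) and Tsr1 (0.891). For Dgkz they were Rasal1 (r = 0.892), which encodes a GTPase-activating protein of the RAS family, Trak2 (0.887) and Fermt3 (0.883), which encodes the integrin activator kindlin-3.

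Rasgrp1 was most like Abi3 (r = 0.907), Dcaf6 (0.902) and Pag1 (0.897), an adaptor that brings the kinase CSK to the membrane. Rasgrp2 was most like Eml5 (r = 0.947), Kmt2d (0.919) and Il6st (0.915), which encodes the shared receptor chain gp130. The genes most like Dgka were Gm8995 (r = 0.952), Ercc6 (0.940) and Ikbkb (0.934), and those most like Dgkd were Tmem63b (0.893), Als2cl (0.889) and Ppp6r1 (0.875).

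Of the other 8 DGK and RasGRP genes 6 were tested, and none of them passed in either comparison (limma). Dgke (1457 ± 118 normalized counts in cKO, 1400 ± 163 in WT, 1743 ± 11.5 in CD25lo and 1367 ± 247 in CD25hi) and Dgkq (1278 ± 166 in cKO, 1334 ± 253 in WT, 1490 ± 220 in CD25lo and 1583 ± 138 in CD25hi) were detected in every library (SD, n = 5, 4, 2 and 3). Rasgrp4 lay between 272 and 501 in all 14 libraries, and Dgkg and Dgki between 0 and 150. Rasgrp3, the RasGRP of B cells, reached at most 47.9, Dgkb at most 2.8, and Dgkk was at 0 in every library, which allows up to 3 reads in each.

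Around the DAG step, 8 lists with 123 genes were read, of which 117 were tested: 6 passed in cKO against WT (2 higher and 4 lower, 5.13% against 3.52% of all tested genes) and 3 in CD25lo against CD25hi (1 higher and 2 lower, 2.56% against 1.62%). These shares are near those over all tested genes. Among the 22 enzymes that make or use DAG and phosphatidic acid, 1 of 20 tested passed in cKO: Plcb4, a phospholipase C driven by G protein-coupled receptors, at 2007 ± 302 in cKO and 1148 ± 405 in WT (log2 fold change 0.88, limma adjusted p = 0.0212). No gene of this list passed between the bins, and none of the 12 tested protein kinases C and D and other C1-domain receptors passed in either comparison. Plcb4 did not pass without cKO replicate 3 or 5, with limma adjusted p of up to 0.0676.

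Among 17 RAS and RAP GTPases and other exchange factors, 1 passed: Rapgef4, a RAP exchange factor that senses cyclic AMP, higher in CD25lo at 1362 ± 134, against 575 ± 228 in CD25hi (1.33, limma adjusted p = 0.0263). Of all 117 genes only Rapgef4 passed for the difference of the comparisons (-1.62, limma adjusted p = 0.0394), and this call held in 4 of the 14 fits that left out 1 library (adjusted p up to 0.162). Among 16 RAS and RAP GTPase-activating proteins 2 passed in cKO, both lower: Rasal1 at 1038 ± 117 in cKO and 1713 ± 226 in WT (-0.72, limma adjusted p = 0.0121), and Rasa3 at 12715 ± 980 in cKO and 15917 ± 417 in WT (-0.33, limma adjusted p = 0.0151). Rasa3 was lost without cKO replicate 1 (limma adjusted p = 0.0512), and Rapgef4 in the bins without CD25hi replicate 2 or either CD25lo library (up to 0.219).

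Further down, 1 of 16 genes of the RAF, MEK and ERK cascade passed in cKO and none between the bins: Elk3, an ETS factor that ERK phosphorylates, at 4584 ± 178 in cKO and 3635 ± 233 in WT (log2 fold change 0.34, limma adjusted p = 0.00887). Of 12 feedback inhibitors of ERK, Dusp2, a nuclear phosphatase of ERK, passed at 3680 ± 790 in cKO and 5589 ± 1086 in WT (-0.60, limma adjusted p = 0.0450), and it was kept in 7 of 14 fits that left out 1 library, with adjusted p of up to 0.122. Of the 18 early genes, Myc was lower in both comparisons, at 4741 ± 379 in cKO and 6913 ± 718 in WT (-0.54, limma adjusted p = 7.6e-04) and at 5648 ± 133 in CD25lo and 8379 ± 708 in CD25hi (-0.57, limma adjusted p = 0.0116), and Nr4a3 was lower at 1903 ± 65.4 in CD25lo and 3111 ± 372 in CD25hi (-0.70, limma adjusted p = 0.0435). Myc was kept without any 1 library in cKO against WT and lost in the bins without CD25lo replicate 1 or 2 (limma adjusted p up to 0.0770), and Nr4a3 was kept in 6 of 14 fits (up to 0.261). With sex as a term, Myc alone of the 6 genes called in cKO against WT was still called (limma adjusted p = 0.0429), and the adjusted p of the others was 0.160 to 0.726.

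**Figure D5:**
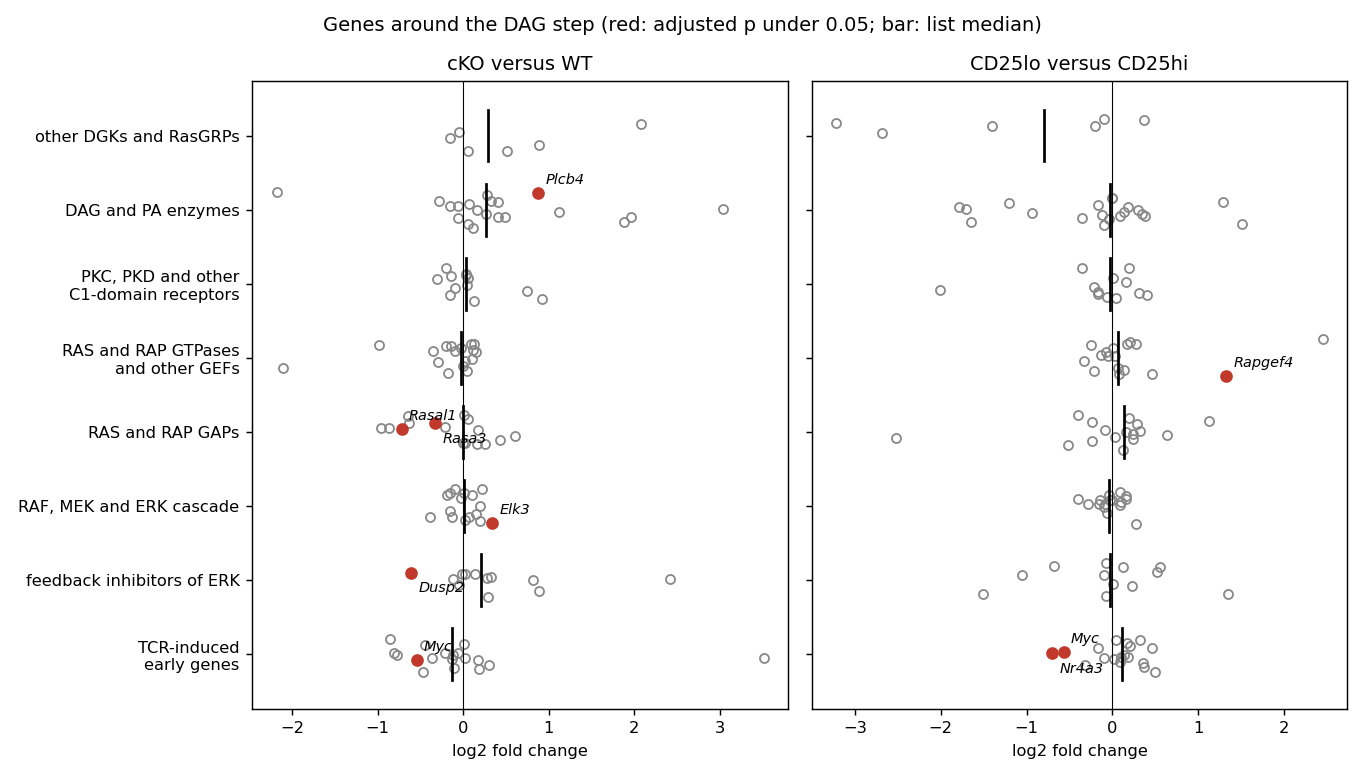
Log2 fold change (horizontal axes) of the tested genes of 8 lists around the DAG step (rows) in cKO against WT and in CD25lo against CD25hi. Each circle is a gene, filled red and named where the adjusted p was under 0.05, and vertical bars are list medians; 6 genes are red in the first comparison and 3 in the second.

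The 6 genes stand on GRCm38 at chr10:128720134-128744855 (Dgka), chr1:87853287-87945180 (Dgkd), chr2:91932824-91975864 (Dgkz), chr2:117279993-117343001 (Rasgrp1) and chr19:6399340-6415216 (Rasgrp2), and Dgkh, in the deposited table, at chr14:78569609-78725089, where its exons span 5685 bases against 16975 over the longer gene model of GENCODE M21. Dgka shares 105 exon bases with Pmel on the other strand, Dgkd 62 with Usp40 and 110 with Gm19582, Dgkz 222 with Gm9821 and Rasgrp2 265 with Gm14965. Whether counting used strand is not given in the sources used here, so reads in these overlaps cannot be assigned with certainty. Usp40 averaged 732 normalized counts and each of the other 4 partners at most 53.2. Dgkh shares 819 exon bases with Gm48998 on its own strand, which was not analysed here, and Rasgrp1 shares no exon bases with another gene.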

How the data were processed

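RNA-seq of sorted Tregs was analysed in 14 libraries, grouped by their labels. Reads were aligned by the authors with STAR 2.7.2b (GRCm38). The signal that they deposited for each gene in a library is its read count over the DESeq2 1.24.0 size factor, given in steps of 0.1 (normalized count). Columns of the authors' own comparisons (fold changes and p-values) were not used. Of 55536 genes, 48363 have values.

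Whole reads could be recovered from the steps of the deposited values (all of them within 0.055), and served alternatives with edgeR 4.0.16, DESeq2 1.42.0 and limma-voom. The main test was limma-trend (R 4.3.3, limma 3.58.1) on log2(normalized count + 1), with 4 group means over all 14 libraries, a filter of 10 normalized counts reached in 2 libraries, and Benjamini-Hochberg adjustment over 16241 genes. Fold changes are on that scale. A gene was called at an adjusted p under 0.05. The main test was first run on simulated data. These held larger changes than those of Dgkz and Dgkh in cKO against WT, and no difference by sex or early gene level.

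Named were the 6 genes, up to 4 called genes with the smallest adjusted p per list and comparison, and the 3 genes most like each by Pearson r. Ighm was named after its values were seen. The genes and lists were chosen with earlier results of these data known. Depth was 30055573 to 35226685 reads in genes. Alternatives were other tools, pseudocounts of 0.5 and 5, no filter or one of 100, only the groups compared, a replicate block, sex or the early gene level as a term, and leaving out each library. One gene of the lists and the seed search of Dgkh are not reported here.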

Additional observations from a re-analysis of the deposited data

Results flagged for a closer look

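Dgka in WT replicate 4 stood apart from the other WT libraries, at 54487.5 normalized counts against 46739.9 to 47766.9 in WT replicates 1 to 3 (Dixon's ratio 0.867). The same library had the lowest early gene level of the WT group, 12.00 against 13.05 to 13.36 on the log2 scale, and its part in the value was not tested. This was the only 1 of 12 groups of 4 or 5 libraries that stood out in this way, and chance alone flags about 1 in 20.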

How the results depend on the processing

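Deviations from the group means of same-numbered cKO and WT libraries had correlations of -0.199, -0.273, -0.081 and -0.409. Replicate numbers thus gave no sign of pairing between these 2 groups. For CD25lo and CD25hi the correlations were 0.173 and -0.055. The deviations of the 2 CD25lo libraries mirror each other, so these values cannot show whether the bins are paired. Pairing of bulk WT libraries with the bins was not tested. With a replicate block, the log2 fold change in cKO against WT was -0.51 for Dgkh (limma adjusted p = 0.142), -0.20 for Dgkz (0.170) and 0.021 for Dgkd, and in CD25lo against CD25hi it was -0.73 for Dgkh (0.163) and -0.015 for Rasgrp1. Genes called with the block were 290 in cKO against WT, 105 in the bins and 25 for the difference, against 572, 263 and 168 without it.

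With sex as a term, Dgkh in cKO was -0.74 and Dgkz -0.23, neither called, Dgkh in the bins -0.75 (limma adjusted p = 0.0593), and 22 genes were called in cKO against WT and 21 for the difference. Without a filter, Dgkh in cKO (-0.56, limma adjusted p = 0.0504), Dgkz (-0.21, 0.0573) and Dgkh in the bins (-0.75, 0.0821) were not called. Dgkz in cKO was also lost with edgeR and TMM (-0.20, adjusted p = 0.0567) and when only the groups compared were fitted (-0.21, limma adjusted p = 0.0597). Dgkh in the bins was also lost with edgeR under TMM (-0.76, adjusted p = 0.0552) or the deposited size factors (-0.76, 0.0595), with limma-voom (-0.75, 0.0515), with a pseudocount of 0.5 (-0.75, 0.0504) and with only the groups compared (-0.75, 0.0874). Dgka in the bins was called with DESeq2 (0.33), limma-voom (0.32), only the groups compared (0.33) and the early gene level as a term (0.34), and Rasgrp2 for the difference with that term (-0.67).

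Genes called numbered 895 in cKO against WT, 674 in the bins and 568 for the difference with DESeq2, 160 in the bins with only the groups compared, 423 in the bins and 386 for the difference with the early gene level, and 83 and 256 for the difference without a filter and with a minimum of 100. Of the genes called for the difference, 52.2% were higher with limma-voom, against 64.9% in the main test. Among the list genes, Nr4a3 in the bins was not called with edgeR (TMM or deposited size factors), limma-voom, no filter or sex as a term (adjusted p = 0.0517 to 0.0886), Rapgef4 in the bins not without a filter, with only the groups compared or with the replicate block (0.0512 to 0.0940), and Rapgef4 for the difference not without a filter, with the block or with sex (0.0738 to 0.196). In cKO against WT the block also ended the calls of Plcb4, Rasal1, Rasa3 and Dusp2 (0.0504 to 0.0791), and Dusp2 was lost without a filter and with only the groups compared. The cause was not tested.

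Leaving out 1 library gave 349 to 666 genes called in cKO against WT, 91 to 377 in the bins and 65 to 218 for the difference. In cKO against WT the log2 fold change was -0.64 to -0.49 for Dgkh, -0.24 to -0.17 for Dgkz, -0.031 to 0.064 for Dgka and -0.11 to 0.021 for Dgkd, and in the bins -0.90 to -0.60 for Dgkh and -0.038 to 0.069 for Rasgrp1. With 2 CD25lo libraries, a fit without one of them assumes that the lone library varies like the other groups. Over all alternatives other than leaving out a library, Dgkh in cKO was called in 9 of 12, Dgkz in 7 and Dgkh in the bins in 4.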
